A study of Mus musculus with 6 samples.

Results

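Distal upstream peaks were defined as NF-YA peaks annotated to a protein-coding gene whose centre lay more than 1000 bp upstream of the listed transcription start site (TSS) of that gene, on the side away from the gene body. This rule used positions only and no signal. It held for 680 of 9056 peaks (7.51%), and these 680 were annotated to 600 genes. The peaks came from CUT&RUN, in which an antibody tethers a nuclease to its target and the DNA released around the target is sequenced. The cells were muscle stem cells (MuSCs) of wild-type C57BL/6 mice, sorted from limb and trunk muscle and then expanded in culture, so that they were activated and proliferating rather than quiescent. An antibody against NF-YA was used for 3 libraries, described as biological replicates, and control IgG for another 3 libraries, whose values were not analysed here. No treatment is listed for any library, and an assay of factor binding gives no marker expression against which the cell type could be checked. For its sorting in general, the study re-analysed sorted cells and reports that purity was incomplete.

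NF-Y is a trimer of NF-YA, NF-YB and NF-YC. NF-YB and NF-YC pair through histone folds and contact the DNA backbone, and NF-YA inserts into the minor groove and reads the pentamer CCAAT. The factor is best known at promoters, where the CCAAT box usually stands a short way upstream of the start site. It is also found at distal elements and at long terminal repeats of endogenous retroviruses.

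Sequences at the centres of 6 distal upstream peaks are given first, since they show the element that recurred among the stronger peaks. Trappc9, Serpinh1 and Kdm6b were among the 10 highest peaks, Prickle3 was among those with most CCAAT boxes, and Scd2 and Nr4a1 belonged to gene lists described further on. Each run spans 101 bases of the plus strand of GRCm38.p6, the assembly behind mm10, and capitals mark CCAAT or its reverse complement ATTGG.
Trappc9, chr15:73067546-73067646: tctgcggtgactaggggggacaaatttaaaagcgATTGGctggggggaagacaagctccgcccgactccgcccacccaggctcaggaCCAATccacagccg
Serpinh1, chr7:99360229-99360329: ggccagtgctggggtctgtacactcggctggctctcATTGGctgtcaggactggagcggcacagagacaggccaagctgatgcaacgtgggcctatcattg
Kdm6b, chr11:69418962-69419062: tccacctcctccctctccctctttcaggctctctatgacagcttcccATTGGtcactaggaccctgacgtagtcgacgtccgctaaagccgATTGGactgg
Prickle3, chrX:7648957-7649057: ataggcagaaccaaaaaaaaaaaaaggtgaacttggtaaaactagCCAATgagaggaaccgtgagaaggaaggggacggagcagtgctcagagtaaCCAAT
Scd2, chr19:44284287-44284387: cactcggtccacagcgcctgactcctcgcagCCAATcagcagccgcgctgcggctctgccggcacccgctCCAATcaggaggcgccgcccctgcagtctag
Nr4a1, chr15:101246396-101246496: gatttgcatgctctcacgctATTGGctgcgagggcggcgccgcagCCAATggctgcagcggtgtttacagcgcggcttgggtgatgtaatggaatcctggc

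The number of reads in peaks limited what single peaks could show. Each value is a number of reads in a peak after scaling of the library by its size factor, given as a whole number and termed normalised reads, and longer peaks are not corrected for their length. Read numbers were estimated from the steps between the whole-number values, and by this estimate the distal upstream peaks held 21659, 10116 and 14969 reads in replicates 1, 2 and 3, between 4.46% and 4.54% of all reads in peaks. The median distal upstream peak rested on 16, 8 and 12 reads in these libraries. The level was above a floor of 3 reads in all 3 libraries at 529 peaks (77.8%), in 2 libraries at 116 peaks and in 1 library at 35 peaks. Replicate 2, the shallowest in peaks, was at or below the floor at 121 distal upstream peaks, compared with 58 in replicate 3 and 7 in replicate 1. This order is not that of sequencing, since the study lists the most mapped reads for replicate 2 and the fewest for replicate 1. It also lists the most strong peaks for replicate 1. The part of peak calling in these counts was not tested.

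Most of the strongest distal upstream peaks lay far from the listed start of their gene and were similar in the 3 libraries. The highest was 6391 bp upstream of Trappc9, the gene of a subunit of the TRAPP trafficking complex, at chr15:73067350-73067841. It reached 263, 239 and 265 normalised reads (256 ± 14.5, SD, n = 3). No transcript start of GENCODE M21 was nearer than that of Trappc9 itself, and a promoter peak of the same gene reached 20 ± 9.64 (SD, n = 3). The peak 8914 bp upstream of Foxj2, which encodes a forkhead transcription factor, measured 203, 191 and 204 (199 ± 7.23). The peak 7040 bp upstream of Serpinh1, the gene of the collagen chaperone of the endoplasmic reticulum, measured 201, 183 and 213 (199 ± 15.1). In each of these 3 peaks the lowest value was that of replicate 2.

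Tle2, a Groucho-type co-repressor gene, had a peak 2902 bp upstream with a wider spread of 138, 207 and 194 normalised reads (180 ± 36.7). Sesn2, a stress-induced sestrin gene, had 175, 157 and 178 at 5204 bp (170 ± 11.4), beside a promoter peak of 159 ± 20.0. The means of the distal and the promoter peak of Sesn2 differed by less than the SD of the promoter peak. The peak 4030 bp upstream of the predicted gene Gm17455 lay in an intron of the cadherin gene Cdh23 and measured 152, 194 and 155 (167 ± 23.4). Fbrs, encoding fibrosin, had 153, 168 and 158 at 1209 bp (160 ± 7.64).

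Mydgf, which encodes a secreted growth factor, reached 126, 173 and 163 at 1640 bp (154 ± 24.8). Kdm6b, the gene of a demethylase of histone H3 lysine 27, reached 139, 180 and 127 at 5336 bp (149 ± 27.8). The cell cycle gene Ccne1, encoding cyclin E1, came next with 114, 146 and 175 at 4820 bp (145 ± 30.5), and its promoter peak held 6 ± 2. Of the 10 highest peaks, 9 lay between annotated genes, 10 had a CCAAT box within 50 bp of the centre, and 4 belonged to genes that also had a promoter peak. Their coefficient of variation (CV, SD over mean) ranged from 3.63% to 20.4%, and they ranked between 144 and 423 among all 9056 peaks.

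**Figure D1:**
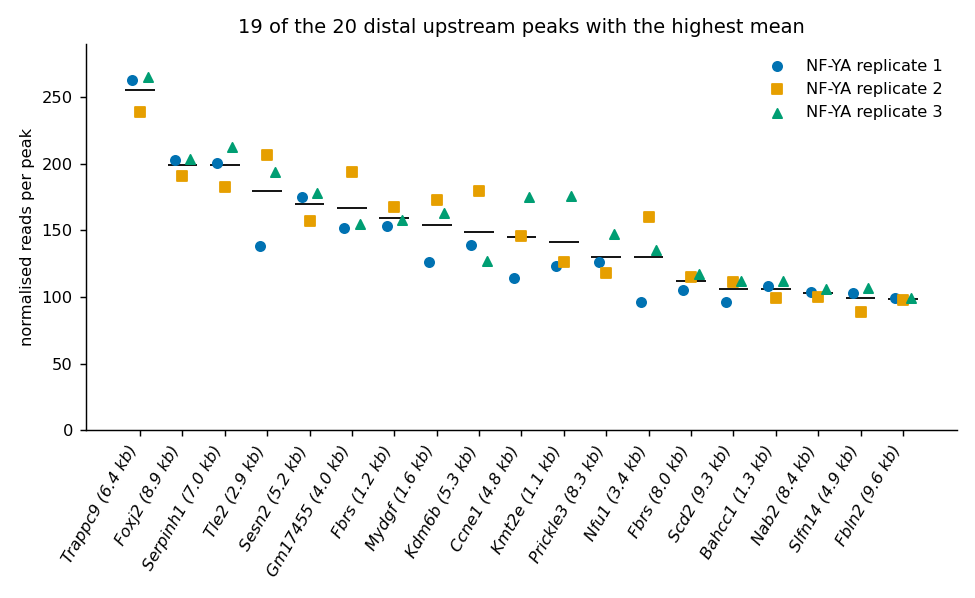
Normalised reads per peak in each of the 3 NF-YA libraries for 19 of the 20 distal upstream peaks with the highest mean (symbols, libraries; black lines, means; distance to the listed TSS in kb after the gene name). The means run from 256 at Trappc9 to 98.7 at Fbln2, and replicates of 1 peak are closer together at Foxj2 and Fbln2 than at Tle2, Kdm6b or Ccne1.

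Most distal upstream peaks were far weaker than these. The medians over the 680 peaks were 11, 12 and 12 normalised reads in the 3 libraries. A mean of at least 100 was held by 18 peaks and one of at least 50 by 61 peaks, whereas 275 peaks had a mean under 10. In the ranking of all 9056 peaks, 102 distal upstream peaks (15%) fell into the highest quartile and 200 (29.4%) into the lowest. The median peak was 181 bp long, with a range from 100 to 761 bp, and the 680 peaks covered 141 kb on 20 chromosomes.

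To see how far the level fell with position, distal upstream peaks were compared with the 2621 peaks within 1000 bp upstream of a protein-coding gene (proximal upstream peaks). The ratio of the median levels, distal over proximal, on the log2 scale was -1.58, -1.37 and -1.46 in the 3 libraries in turn (-1.47 ± 0.11, SD, n = 3). All 3 libraries showed the lower level of the distal peaks. An exact sign-flip permutation test over the libraries (two-sided) gave p = 0.25, the smallest value that 3 libraries allow. Distal peaks were also shorter, with medians of 181 and 257 bp. Per kb of peak, the log2 ratio was -0.86 ± 0.06 (SD, n = 3), so the sign held and the size was smaller.

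Against the 960 peaks more than 1000 bp downstream of the start of a protein-coding gene (distal intragenic peaks, of which 64 had a centre outside any annotated gene), the difference was small. The log2 ratio was -0.24, -0.32 and -0.12 in replicates 1, 2 and 3 (-0.23 ± 0.10, exact sign-flip permutation p = 0.25, n = 3). Without the peaks of both classes within 1000 bp of any transcript start, it was 0.00 in all 3 libraries, because both medians were then equal. Of the distal intragenic peaks, 40% were that close to a transcript start, compared with 14.0% of the distal upstream peaks.

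**Figure D2:**
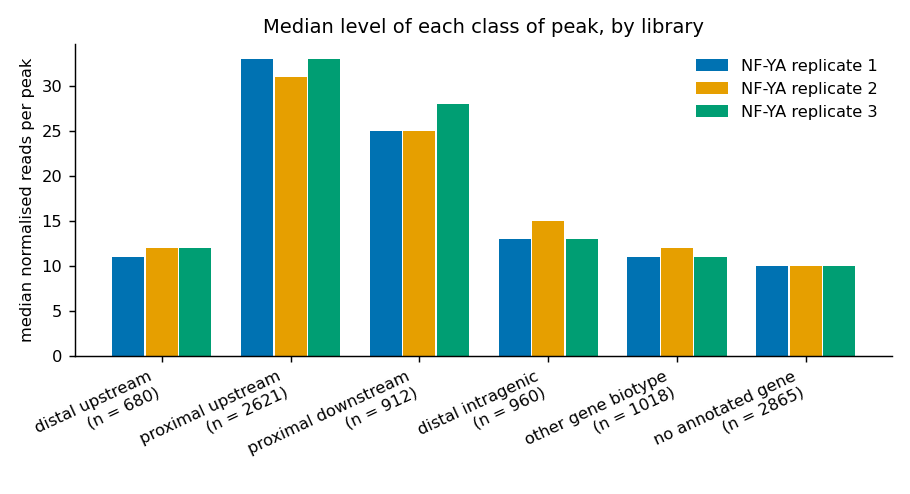
Median normalised reads per peak in each NF-YA library (bars, 1 colour per library) for distal upstream peaks and the 5 other classes of peaks by position and gene type, with the number of peaks below each name. The distal upstream class stands at 11 to 12, between the peaks with no annotated gene (10) and the distal intragenic class (13 to 15), and below the proximal upstream class (31 to 33).

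Within the upstream range, levels were alike in 3 bins of distance. The centres lay between 1012 and 10014 bp from the listed TSS, with a median of 4769 bp, and the upper end was set by the annotation, which reached to about 10000 nt. The median of the mean level was 13.7 for 135 peaks up to 2000 bp, 11.7 for 225 peaks up to 5000 bp and 12 for 320 peaks beyond. The Spearman correlation of level and distance over the 680 peaks was -0.02, given as a description since peaks of a library share its depth. At the 1000 bp limit, the nearest peaks inside were those of Hnrnpr (8, 9 and 9 normalised reads at 1012 bp), Fasn (7, 15 and 16 at 1019 bp) and Fbxo11 (78, 81 and 95 at 1020 bp). The nearest outside were those of Pdk2 (11, 10 and 14 at 1000 bp), Cabin1 (10, 15 and 8 at 993 bp) and Prdm1 (10, 7 and 10 at 991 bp).

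Next, it was asked how many distal upstream peaks were distal from every known start. At 95 peaks (14.0%, 95% Wilson interval 11.6 to 16.8%) the centre was within 1000 bp of the start of a GENCODE M21 transcript. That the nearest such start was never one of the annotated gene follows largely from the rule, which sets the peaks apart from their own gene's start. The nearest start belonged to a protein-coding gene in 41 cases, to a lincRNA in 18, to an antisense RNA in 12 and to a processed transcript in 9. These 95 peaks had medians of 14, 15 and 18 normalised reads in replicates 1, 2 and 3, against 11, 12 and 12 for the other 585. Their log2 ratio came to 0.42 ± 0.14 (SD over 3 libraries), above 0 in 3 of 3 libraries, with p = 0.25 in the exact sign-flip permutation test.

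Several strong distal upstream peaks stood on the start of another transcript. The peak annotated to Foxj2 was 170 bp from the start of Gm5112, an unclassified transcript. The peak 1131 bp upstream of Kmt2e, a gene of the MLL family, was 1 bp from the start of the lincRNA 5031425E22Rik and measured 123, 126 and 176 (142 ± 29.8). A second peak of Fbrs, 7950 bp upstream, was 197 bp from the start of Prr14, inside that gene, and measured 105, 115 and 117 (112 ± 6.43). Other examples, picked after their values were seen, were the peaks annotated to Nab2 at 113 bp from the start of Nemp1 (103 ± 3.06), to Nacc1 at 1 bp from that of Trmt1 (65.3 ± 9.50) and to Kdm5a at 2 bp from that of Ccdc77 (49 ± 5.20).

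RefSeq, examined after the GENCODE result, lists further starts. At 33 distal upstream peaks the centre was within 1000 bp of a RefSeq transcript start of the annotated gene itself, although the listed start was more than 1000 bp away, and at 6 of the 33 such a transcript was curated rather than predicted. Fbrs (1209 bp from its listed start, 425 bp from a RefSeq start), the highest Kdm6b peak (871 bp from one) and Fbxo11 (266 bp from a curated one, 84.7 ± 9.07 normalised reads) were among them. The 33 peaks had a median mean level of 32.3, and 11 of them were among the 61 with a mean of at least 50. With both annotations, 132 distal upstream peaks (19.4%) were within 1000 bp of some transcript start and 548 were not. The 548 had a median mean level of 11.7 and included Trappc9, Serpinh1, Sesn2, Mydgf and Ccne1.

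**Figure D3:**
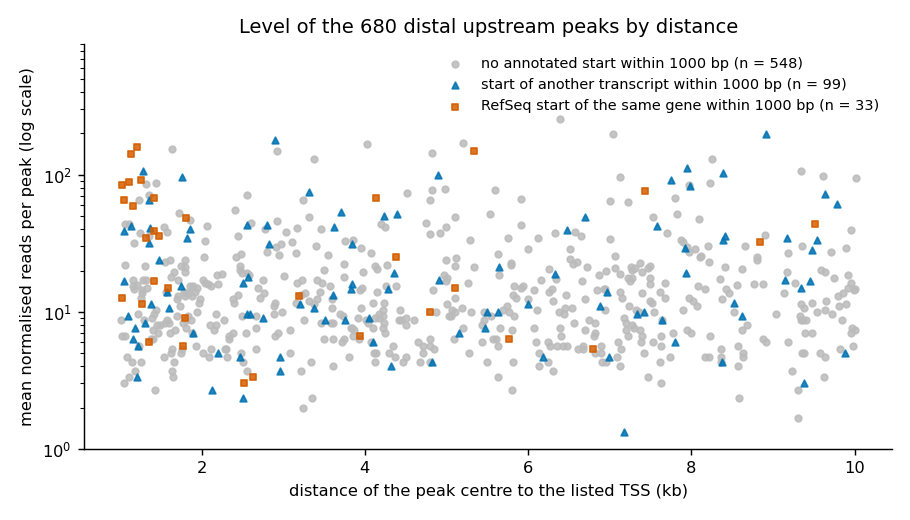
Mean level of the 680 distal upstream peaks (log scale) against the distance of the peak centre to the listed TSS, 1 symbol per peak. Peaks within 1000 bp of a RefSeq start of the same gene (33, squares) are mostly found at short distances and include high levels, those near another start (99, triangles) are found at all distances, and no slope with distance is visible in the other 548.

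The sequence under the distal upstream peaks was then compared with its surroundings. The 101 bp at the peak centre held CCAAT in 300 of 680 cases (44.1%, Wilson interval 40.4 to 47.9%). In windows of the same width 1000 bp to either side, it occurred in 177 of 1360 (13.01%). The difference was 31.1 percentage points (Newcombe 95% interval 27.0 to 35.2). A longer consensus, of 2 purines before CCAAT and then C or G and a purine, was found in 19.6% of centres and 1.62% of flanks. Boxes were most frequent in the 50 bp to either side of the peak centre. In the 365 peaks with a box anywhere in the peak, the nearest box was a median of 19 bp from the centre. Peak length and the choice of the nearest box both limit this distance, which was not set against random placement.

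**Figure D4:**
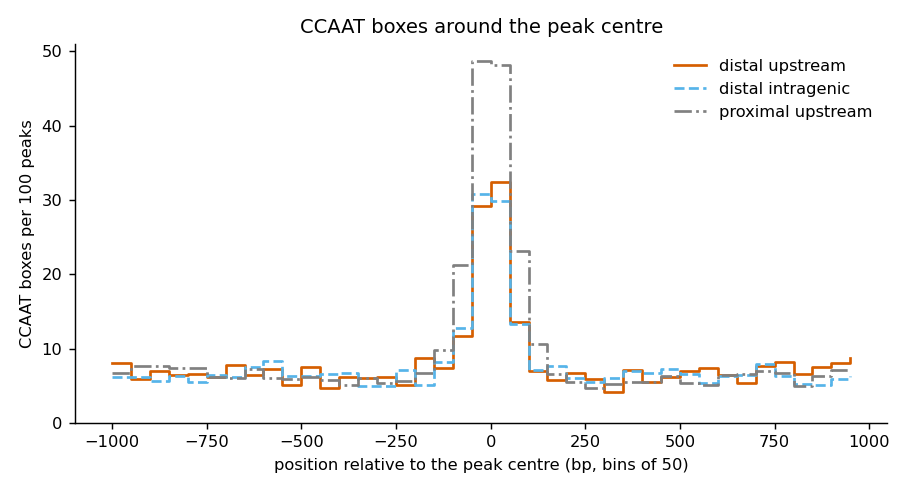
CCAAT boxes per 100 peaks in bins of 50 bp around the peak centre, for distal upstream, distal intragenic and proximal upstream peaks. Distal upstream peaks reach 29.1 and 32.4 boxes per 100 peaks in the central bins, about the level of the distal intragenic peaks and below the 48.8 and 48.1 of the proximal upstream peaks, and the classes lie together beyond 200 bp.

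Distal upstream peaks held the box less often than proximal upstream peaks, of which 69.3% had it, a difference of -25.2 points (Newcombe interval -29.2 to -21.0). The share was close to that of distal intragenic peaks, 46.3%, with a difference of -2.13 points and an interval of -6.99 to 2.76. In peaks with no annotated gene the share was 44.2%, with a difference of -0.0708 points (-4.19 to 4.10). Since promoter peaks were stronger, the comparison was repeated within quartiles of level set over all 9056 peaks. Distal upstream peaks were below proximal upstream peaks in each of these quartiles, with differences of -13.1 points (-21.3 to -4.41) in the lowest, -13.2 (-21.1 to -4.96) and -22.0 (-30.1 to -13.7) in the next 2, and -10.1 (-19.8 to -1.84) in the highest. Against peaks with no annotated gene, the differences from the lowest to the highest quartile were -1.95 (-8.62 to 5.32), -7.39 (-14.6 to 0.133), -3.40 (-11.7 to 4.96) and 12.3 points (1.17 to 22.2), so that the sign in the highest quartile was opposite to that in the other 3.

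The box went with the level among the distal upstream peaks themselves. In the weakest quartile of their own levels, with means up to 7, 30.6% had CCAAT near the centre, and the share was 37.6%, 41.2% and 67.1% in the following quartiles. The difference between the strongest and the weakest quartile was 36.5 points (Newcombe interval 26.1 to 45.7). Among the 18 highest peaks, those whose mean reached 100, 16 had the box (88.9%, Wilson interval 67.2 to 96.9%). Quartiles also differed in depth, since 22.9% of the peaks in the weakest and 100% in the strongest exceeded 3 reads in all libraries, and in length, with medians of 112 and 315 bp. The part of length and depth in the difference was not tested beyond the comparison per kb, in which the difference was 42.9 points.

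**Figure D5:**
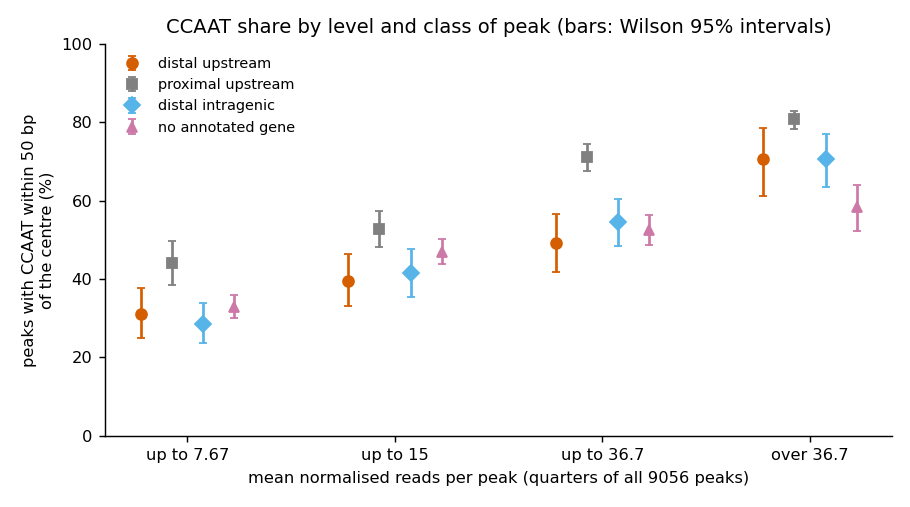
Share of peaks with CCAAT within 50 bp of the centre in 4 quartiles of mean level set over all 9056 peaks, for distal upstream peaks and 3 other classes (symbols, shares; bars, Wilson 95% intervals). The share in distal upstream peaks rises from 31.0% to 70.6%, and the proximal upstream peaks are above them in every quartile.

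The peaks with most boxes showed how differently these were arranged. The Ccne1 peak held 6 boxes, on both strands, in 747 bp. Another 6 were held by the 400 bp peak 8254 bp upstream of Prickle3, a planar cell polarity gene, which lay in an intron of Syp and measured 126, 118 and 147 (130 ± 14.98). The peak 10014 bp upstream of Aacs, which encodes acetoacetyl-CoA synthetase, held 5 boxes at 114, 77 and 93 (94.7 ± 18.6). Map4k4, the gene of a stress-activated kinase, had 5 boxes in a peak of 170 bp at 7621 bp, all on 1 strand and spaced 30 bp apart in a tandem array that was 68.2% soft-masked, that is, marked as repeat in the assembly. Its level was low at 10, 21 and 11 normalised reads (14 ± 6.08). The whole Map4k4 peak is shown for this array, with ATTGG in capitals.
Map4k4, chr1:39893208-39893377: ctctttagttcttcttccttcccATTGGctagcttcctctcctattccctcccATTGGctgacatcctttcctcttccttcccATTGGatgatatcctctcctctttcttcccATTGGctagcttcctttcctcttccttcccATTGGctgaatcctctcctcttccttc

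Soft-masked centres were more frequent in distal upstream peaks than in 3 other classes. The centre was soft-masked in 71 of 680 (10.4%), against 3.89% of proximal upstream peaks (difference 6.55 points, Newcombe interval 4.32 to 9.16) 6.04% of distal intragenic peaks (4.40 points, 1.72 to 7.26) and 7.85% of peaks with no annotated gene (2.59 points, 0.261 to 5.28). Peaks of other gene biotypes had 8.94%, a difference that was not tested. The flanks of these classes showed the same order, being soft-masked in 28.4% of cases at distal upstream peaks, 24.9% at peaks of other gene biotypes, 24.3% with no annotated gene, 20.9% at distal intragenic and 19.2% at proximal upstream peaks. Peaks within 1000 bp downstream of a protein-coding start departed from it, with 3.29% of centres and 21.5% of flanks. CCAAT was found at 42.3% of the soft-masked centres and at 44.3% of the others, a difference of -2.08 points (-13.6 to 10.2). The median level was 10.3 at soft-masked centres and 12.3 at the others. Of the 593 CCAAT boxes in distal upstream peaks, 9.95% were soft-masked, compared with 1.16% of the 4474 in proximal upstream peaks. The share was 10.3% in peaks of other gene biotypes, 6.85% with no annotated gene and 2.82% in distal intragenic peaks.

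Copies of the same element could be recognised without a repeat annotation. This search was added after the data were seen: peaks were joined where the 201 bases around their centres shared an identical run of at least 25 bases. At 38 distal upstream peaks (5.59%) another peak carried such a copy, compared with 1.83% of proximal upstream peaks (difference 3.76 points, Newcombe interval 2.15 to 5.80) and 1.67% of distal intragenic peaks (3.92 points, 2.11 to 6.01). Against peaks with no annotated gene (3.07%) the difference was 2.52 points (0.872 to 4.59), and peaks of other gene biotypes had 5.50%. CCAAT lay near the centre in 30 of the 38 (78.9%) and in 42.1% of the other 642 distal upstream peaks, and 28 of the 38 held at least 2 boxes. Among copies in other classes, it lay there in 39 of 48 proximal upstream and 9 of 16 distal intragenic peaks. Within 1000 bp downstream of a protein-coding start, the count was 12 of 15. It was 45 of 56 for other gene biotypes and 77 of 88 with no annotated gene. The largest family had 28 peaks on 15 chromosomes, 5 of them distal upstream, and 23 of the 28 held 2 or more boxes. The authors had removed reads that mapped to several places, so identical copies longer than a read could not be counted. Copies need not be repeats: the match of Scd2 was with another peak on the same chromosome, and none of the 3 peaks of that family had a soft-masked centre.

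Sequences of 3 families are shown because the boxes stand at the same or nearly the same place in each copy. Each run spans 90 bases, written on the strand on which the copies match, with CCAAT or ATTGG in capitals. In the family of 28 peaks, Slco1a6, a member of the organic anion transporter family, measured 20, 13 and 13 normalised reads, and the forkhead gene Foxr1 measured 17, 7 and 6.
Slco1a6, chr6:142209625-142209714: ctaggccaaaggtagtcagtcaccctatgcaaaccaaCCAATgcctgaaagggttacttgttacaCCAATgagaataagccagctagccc
Foxr1, chr9:44447480-44447569: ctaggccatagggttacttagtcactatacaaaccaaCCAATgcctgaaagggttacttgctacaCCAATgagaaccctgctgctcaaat
A family of 15 peaks, with soft-masked centres and at least 2 boxes in all 15, included Usp28, a deubiquitinase gene (8, 9 and 7), the angiogenic factor gene Aggf1 (7, 18 and 8) and the ubiquitin ligase gene Uhrf2 (7, 1 and 5).
Usp28, chr9:48983812-48983901: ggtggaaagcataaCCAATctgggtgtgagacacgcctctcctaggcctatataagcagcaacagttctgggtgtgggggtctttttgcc
Aggf1, chr13:95377081-95377170: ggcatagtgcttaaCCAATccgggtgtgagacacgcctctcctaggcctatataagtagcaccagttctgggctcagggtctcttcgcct
Uhrf2, chr19:30023624-30023713: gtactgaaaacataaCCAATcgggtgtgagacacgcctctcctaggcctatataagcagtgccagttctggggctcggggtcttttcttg
A family of 8 peaks included Pvrig, an immune receptor gene (14, 12 and 18), and Cabin1, a calcineurin inhibitor gene (16, 10 and 14).
Pvrig, chr5:138334948-138335037: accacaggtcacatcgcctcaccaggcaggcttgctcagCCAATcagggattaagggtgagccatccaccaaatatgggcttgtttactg
Cabin1, chr10:75767864-75767953: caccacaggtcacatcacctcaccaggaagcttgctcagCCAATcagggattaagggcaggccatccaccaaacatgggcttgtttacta
These copies had means between 4.33 and 15.3, and replicate values of Foxr1, Aggf1 and Uhrf2 reached the floor of 3 reads or spread over more than 2-fold. The genes were chosen after their values were seen.

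Base composition and location were described without a test. The central 101 bp had a median GC content of 53.5%, compared with 48.02% in the flanks, 61.4% in proximal upstream and 55.4% in distal intragenic peaks. CpG dinucleotides numbered 2.41 per window on average, against 6.85 in proximal upstream peaks. By GENCODE, 481 centres (70.7%) lay between genes, 144 (21.2%) in introns and 55 (8.09%) in exons of overlapping genes. The CCAAT share was 43.7% between genes and 44.4% in introns.

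Motifs of other factors were searched on both strands of the same central window. The AP-1 site TGACTCA, bound by FOS and JUN dimers, occurred in 13.5% of distal upstream peaks, 1.18% of their flanks and 9.71% of all peaks. In proximal upstream peaks it occurred in 1.76%, so that the distal upstream share was 11.8 points higher (Newcombe interval 9.34 to 14.6). The E-box CAGCTG, of the type bound by myogenic factors such as MyoD, occurred in 18.4% of distal upstream peaks, 5.59% of flanks and 15.1% of all peaks. Its share was 13.2 points above that of proximal upstream peaks (10.4 to 16.4). A core of TEAD sites, GGAATG, occurred in 11.3%, 4.56% of flanks and 7.82% of all peaks, 6.82 points above proximal upstream peaks (4.49 to 9.52).

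The GC box GGGCGG, bound by SP1 and related factors, showed the opposite order, with 12.9% of distal upstream peaks, 41.9% of proximal upstream peaks and 21.3% of all peaks. Distal upstream and distal intragenic peaks were close in TGACTCA (difference 1.55 points, -1.69 to 4.92) and CAGCTG (0.36 points, -3.38 to 4.21). They differed in GGAATG, which was 2.99 points more frequent in distal upstream peaks (0.0953 to 6.04), and in GGGCGG, which was less frequent there (difference -3.62 points, -7.02 to -0.102). Peaks with no annotated gene had CAGCTG more often, in 23.3%, so that distal upstream peaks were 4.93 points below them (difference -4.93, interval -8.09 to -1.50). Of the less frequent letters, the core of the CTCF site occurred in 8 distal upstream peaks (1.18%, and 0.364% of all peaks), the ETS site CCGGAAG in 12 (1.76%, and 3.03% of all peaks), the E-box CACGTG in 16 (2.35%, and 3.16%) and the RUNX site TGTGGTT in 26 (3.82%, and 3.51%). TATAAA occurred in 1.32% of distal upstream peaks, 5.22% of their flanks and 1.78% of all peaks. The shares in proximal upstream, distal intragenic and unannotated peaks were likewise below those of their flanks. The cAMP response element, the NRF1 core and the CArG box were found in 2, 1 and 1 distal upstream peaks, and in 0.729%, 0.718% and 0.652% of all peaks.

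Distal upstream peaks with and without CCAAT near the centre differed in these letters. CAGCTG was present in 8.67% of the 300 peaks with CCAAT and in 26.1% of the 380 without (difference -17.4 points, Newcombe interval -22.7 to -11.8). TGACTCA was present in 10.3% and 16.1% (-5.72 points, -10.7 to -0.533). For GGAATG the difference was -4.75 points, and its interval, -9.40 to 0.0717, reached 0. A window that holds CCAAT has less room for other letters, and the part of this in the differences was not tested. Peaks without CCAAT were weaker, with medians of 10 normalised reads in each library against 13.5, 18 and 17.

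Windows of 3 distal upstream peaks without CCAAT are given because each holds these letters. Capitals mark the E-box, AP-1 and TEAD letters given above or their reverse complements. Adgrg3, an adhesion receptor gene whose peak lay 4977 bp upstream in an intron of Adgrg1, measured 86, 77 and 74 normalised reads (79 ± 6.25), and its TGAGTCA and CATTCC overlap. Heyl, a target gene of Notch signalling, measured 51, 43 and 53 at 5101 bp (49 ± 5.29). Purb, which encodes a single-strand binding protein that represses muscle genes, measured 52, 38 and 38 at 5918 bp (42.7 ± 8.08).
Adgrg3, chr8:95012665-95012765: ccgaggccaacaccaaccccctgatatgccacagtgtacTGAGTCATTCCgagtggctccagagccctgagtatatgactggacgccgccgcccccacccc
Heyl, chr4:123228405-123228505: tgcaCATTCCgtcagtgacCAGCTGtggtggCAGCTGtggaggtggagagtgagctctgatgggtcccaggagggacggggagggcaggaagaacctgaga
Purb, chr11:6481786-6481886: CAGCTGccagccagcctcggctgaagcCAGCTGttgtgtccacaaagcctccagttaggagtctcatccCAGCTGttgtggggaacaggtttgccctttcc
Adgrg3 was among the 5 highest peaks without CCAAT in the window, and the other 4 of these held none of the 3 motifs: those of Kmt2e and Fbrs at the starts described above, Fbxo11, and Fbln2. These 4 did hold CCAAT elsewhere in the peak. Kmt2e had 2 boxes, Fbrs 4 and Fbxo11 3, the nearest at 85, 51 and 121 bp from the centre. Of the 380 peaks without CCAAT in the window, 315 had none anywhere in the peak. Fbln2, encoding the matrix protein fibulin-2, had the closest replicates among the 20 highest peaks, 99, 98 and 99 normalised reads at 9617 bp, and a box 49 bp from the centre whose far end fell outside the window.

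To relate distal peaks to the promoters of the same genes, promoter peaks were taken as those within 1000 bp of the listed start. Such a peak was present for 196 of the 600 genes with a distal upstream peak (32.7%, Wilson interval 29.0 to 36.5%), compared with 14.7% of 22028 protein-coding genes. The 196 promoters had a median mean level of 47, and the promoters of 3050 other coding genes 34.3. Of the 227 distal upstream peaks of these genes, 178 were lower than the promoter peak and 48 higher. The median log2 ratio, distal over promoter, was -1.51, -1.50 and -1.70 in replicates 1, 2 and 3. In 159 cases the distal peak was lower or equal in all 3 libraries, and in 32, Trappc9, Mydgf and Ccne1 among them, it was higher in all 3. The level of a distal peak and that of its promoter were nearly unrelated (Spearman 0.04 over 227 pairs, a description, since genes with several peaks enter more than once).

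Genes with several distal upstream peaks were few. One such peak was held by 531 genes and more than 1 by 69. Kdm6b had 4 peaks, at 5336, 4379, 3945 and 1766 bp, with means of 149, 25, 6.67 and 5.67, each within 1000 bp of a RefSeq start of Kdm6b. Cirbp, the cold-inducible RNA-binding protein gene, also had 4, which were more even: 41, 43 and 47 normalised reads at 4202 bp, 40, 21 and 25 at 6001 bp, 19, 9 and 28 at 4966 bp, and 24, 7 and 17 at 2075 bp. Its promoter peak was 43.3 ± 10.1. Purb, Tnrc18 and Rhof had 3 each, and the highest Tnrc18 peak was uneven, at 52, 47 and 104 (67.7 ± 31.6).

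Distal upstream peaks were found at a few genes of each of 8 gene lists, set beside 2.71% of all protein-coding genes (598 of 22028 by name). The lists are small, and their shares are given as counts. Among 30 myogenic regulators and markers of MuSCs, 3 had one. Id3, an inhibitor of myogenic basic helix-loop-helix factors, measured 44, 27 and 43 (38 ± 9.54) at 3028 bp, and Mef2d, a partner of these factors, 29, 38 and 31 (32.7 ± 4.73) at 2038 bp. Id1 had 2 weak peaks of 9.67 ± 4.51 and 6.67 ± 3.51. Among 32 genes of Notch, Wnt and growth factor signalling, Heyl, Fzd7 and Smad7 had distal upstream peaks, and those of the Wnt receptor gene Fzd7 (6, 4 and 6) and the TGF-beta inhibitor gene Smad7 (6, 13 and 18) were low.

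Of 21 AP-1 and immediate early genes, 5 had a distal upstream peak, and 7 had a promoter peak. Nr4a1, an orphan nuclear receptor gene, had the highest, 60, 34 and 62 (52 ± 15.6) at 7824 bp, with replicate 2 below the others. Junb measured 21, 24 and 13 (19.3 ± 5.69), Fosb 15, 24 and 17 (18.7 ± 4.73) and Ier2 9, 15 and 14 (12.7 ± 3.21). The Jun peak was 74 bp from the start of the antisense RNA Junos and spread widely over 9, 3 and 16.

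At 3 of the lists, most genes had a promoter peak and 2 had a distal upstream one. Of 26 genes of G2/M and mitosis, 23 had a promoter peak and 2 a distal upstream one. These were Ccnb2, encoding cyclin B2 (13, 21 and 15, with 54.7 ± 10.8 at the promoter), and the kinase gene Aurkb (7, 3 and 3, of which 2 values were at or below the floor). Of 31 genes of endoplasmic reticulum stress and chaperones, 22 had a promoter peak, and the distal peaks of Hspa5 (6, 10 and 5, against 186 ± 35.3 at the promoter) and Hsph1 (13, 4 and 4, against 121 ± 16.6) were weak.

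Of 23 cholesterol and fatty acid synthesis genes, 18 had a promoter peak and 2 a distal upstream peak. Scd2, a fatty acid desaturase gene, measured 96, 111 and 112 (106 ± 8.96) at 9338 bp, within 1 SD of its promoter peak of 107 ± 10.5, and Fasn, the fatty acid synthase gene, measured 12.7 ± 4.93 just outside 1000 bp. The distal peak of Scd2 is the one whose sequence is given above. Of 26 extracellular matrix genes, Sparc (23, 18 and 24 at 5100 bp) and Col1a1 (9, 24 and 17, and 9, 16 and 11) had distal upstream peaks.

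The 34 genes of the NSL complex, partners of TFIID and chromatin modifiers bear on the study's subject, the acetyltransferase complex NSL and the TFIID subunit TAF4A. Of these, 5 had a distal upstream peak and 13 a promoter peak. Kansl2, a subunit gene of the NSL complex, had a weak peak of 16, 13 and 16 (15 ± 1.73) at 2685 bp, without CCAAT, against 164 ± 16.5 at its promoter. Phf20, another subunit gene, had 13, 19 and 14 (15.3 ± 3.21) at 4253 bp, with a box 1 bp from the centre, and Taf4 itself had 9, 13 and 14 (12 ± 2.65) at 3317 bp. The histone demethylase gene Kdm5b reached 33, 31 and 33 (32.3 ± 1.15). The histone methyltransferase gene Setdb1 reached 35, 38 and 17 (30 ± 11.4), and its peak belonged to the repeat family of 28 peaks.

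The spread between replicates exceeded counting error when summed over peaks. The variance between libraries, summed over the 680 peaks, was 1.87 times that of counting the estimated reads, and the factor was 1.28 in the weakest and 2.04 in the strongest quartile. The median CV over the 3 libraries was 28.3%, against a median of 29.3% for counting alone. It was 44.6% against 45.9% in the weakest quartile, 30.8% against 33.6% and 27.6% against 25.7% in the next 2, and 15.1% against 16.0% in the strongest. These medians do not settle whether the typical peak exceeded counting error. An SD of 3 values falls below the true SD more often than not. In proximal upstream peaks the median CV was 18.5%. Between pairs of libraries, Pearson correlations of log2(value + 1) over the 680 peaks were between 0.81 and 0.84, described here without a test because the peaks share their libraries. Between 11.9% and 15.6% of distal upstream peaks differed by more than 2-fold between 2 libraries, and between 5.88% and 8.43% of proximal upstream peaks.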

How the data were processed

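NF-YA was profiled by CUT&RUN in 3 libraries of cultured wild-type MuSCs, with 3 IgG libraries as control for peak calling. Values of the latter were not used here. Per the labels and the study's methods, the authors trimmed reads (Trimmomatic 0.39), aligned them to mm10 (STAR 2.7.9a), removed duplicates (Picard 2.25.5) and spliced, multi-mapping, ribosomal and mitochondrial reads, and called peaks per library against IgG with MACS2. The authors unified the peaks over the libraries, counted reads with featureCounts and scaled them by size factors (DESeq2 1.30.0). They describe annotating peaks to the nearest gene with a TSS within 10000 nt. By GENCODE, the nearest transcript start was one of the annotated gene at 450 distal upstream peaks (66.2%) and not at the others. The gene named for a peak is therefore not always the one with the nearest start. The version numbers are from the submitters' processing notes. The deposited values are thus a score, normalised reads per peak rounded to whole numbers. No count model was fitted to them. A unified peak need not have been found in every library.

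Reads were estimated from the steps between values, 1 read being worth 0.67, 1.48 and 1.02 normalised reads in replicates 1, 2 and 3 (476941, 226909 and 334618 reads in all peaks). Floors (3 reads) and 95% intervals (Wilson for shares, Newcombe for differences) cover counting error only. Levels were compared as log2 ratios of medians per library with an exact sign-flip permutation test over libraries (two-sided). Peaks are not replicates. With 3 libraries, the sign-flip test gives its smallest value, 0.25, whenever the 3 signs agree, so it shows agreement of sign and not the spread. Sequences were read from GRCm38.p6, and transcript starts from GENCODE M21 and RefSeq. Listed gene bounds were identical to GENCODE M21 for 672 of 680 peaks. Python 3.11.15, numpy 2.4.6, pandas 2.3.3, scipy 1.17.1, statsmodels 0.14.6 and pysam 0.24.0 were used, and the steps were tested on simulated data.

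The peaks and gene lists were chosen with earlier results of these data known. Named peaks were the 10 highest, the 10 highest not within 1000 bp of a transcript start, the 5 highest without CCAAT within 50 bp of the centre, the 5 with most boxes, all of listed genes, and those of the 5 genes with most peaks. One of the 10 highest peaks is counted but not reported here. Other named genes were chosen after their values were seen.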

Additional observations from a re-analysis of the deposited data

How the results depend on the processing

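Of 60 alternatives to 11 results, 42 were classed as the same, 15 as moved and 3 as reversed in sign, and 9 of the 60 were chosen after seeing the data (RefSeq starts, repeat copies, and the comparison with peaks of no annotated gene). Some classed as the same lay outside the main interval. The CCAAT difference from flanks, 31.1 points (27.0 to 35.2), was 17.9 with the longer consensus and 39.4 at a mean of at least 10. That from proximal upstream peaks, -25.2 points (-29.2 to -21.0), was -17.8 with the longer consensus. The log2 ratio of distal to proximal upstream peaks was -0.86 per kb and -1.12 among peaks with a mean of at least 10. That of distal upstream to distal intragenic peaks was -0.081 per kb, -0.12 with a limit of 2000 bp, and 0 without peaks near a transcript start, RefSeq included or not. The ratio of peaks near another start to the rest was 0.59 at a mean of at least 10. The share near a transcript start was 10.0% within 500 bp, 34.4% within 2000 bp, 6.47% for starts of protein-coding genes and 19.4% with RefSeq. The median CV was 24.4% at a mean of at least 10. The CCAAT difference from distal intragenic peaks reversed to 3.14 points (-2.52 to 8.78) without peaks near a transcript start and to 3.59 (-2.25 to 9.40) with RefSeq included, and that from peaks with no annotated gene to 0.19 (-5.28 to 5.64) at a mean of at least 10, with intervals that hold 0 as before. Leaving out 1 library gave log2 ratios of -1.52 to -1.41 (proximal upstream), -0.28 to -0.18 (distal intragenic) and 0.33 to 0.47 (near another start), a quartile difference of 33.5 to 37.6 points and a median CV of 20.9% to 24.96%. The causes were not tested, beyond the fewer peaks or libraries in each alternative. Classes of peaks were compared within each library, so these tests are paired by library as they stand. No paired analysis was possible between groups of samples because values of only 1 group were used here. The number of reads in peaks limits single peaks: replicate 2 was at or below 3 reads at 17.8% of the distal upstream peaks.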

Other observations

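In the 380 distal upstream peaks without CCAAT near the centre, all words of 6 letters were counted in the central window and in the flanks, without a list of motifs. CAGCTG ranked first by the difference, with 26.1% of centres against 6.58% of flanks. AGCTGC, which overlaps it, was next with 24.7% against 6.32%. GAGTCA, which is within the reverse complement of the AP-1 site, followed with 22.1% against 5.79%. CATTCC, the reverse complement of the TEAD core, was in 13.4% of centres and 3.95% of flanks. The words were ranked on these peaks, so their order is a description.

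Neighbouring CCAAT boxes on the same strand of a distal upstream peak were 30 to 32 bp apart in 21 of 162 pairs and 40 to 42 bp apart in 22, but 35 to 37 bp apart in 1. In proximal upstream peaks the counts were 226, 162 and 40 of 1728 pairs, in the same order of 30 to 32, 40 to 42 and 35 to 37 bp. The 5 boxes of the Map4k4 array alone gave 4 of the 21 pairs. The spacings were chosen after the distribution had been seen.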
